A study of Homo sapiens with 3 samples.

Results

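Interferon-stimulated antiviral genes were followed in T47D cells, a human breast cancer line that carries the estrogen receptor, after knockdown of the long noncoding RNA ERINA. The 44 members were given as a list of gene symbols, and each symbol matched 1 of the 58039 genes in the deposited table. The series has 3 bulk RNA libraries. The first came from control T47D cells, whose description label names a control hairpin (shCtrl) while their shRNA label reads None. The other 2 libraries, here called by their titles shRNA1 and shRNA2, came from ERINA knockdown T47D cells with a different short hairpin RNA each. Lentivirus carried the hairpins into the cells, per the labels' protocols. No condition has a repeat library, so p-values rest on the spread between the 2 hairpin libraries and not on repeats of a condition. The test used, limma, also draws each gene's spread towards a trend over the tested genes. Hairpin and library cannot be told apart. Whether the control cells carried a hairpin vector cannot be told from these labels, and its part in the values below was not tested.

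Type I interferons bind the receptor pair IFNAR1 and IFNAR2, whose kinases JAK1 and TYK2 activate STAT2 and other factors. STAT2 acts with IRF9 in a complex that binds the interferon-stimulated response element, a DNA motif near the starts of many antiviral genes. The products include RNA sensors that set off further interferon production, effectors that block viral entry, translation or replication, and transcription factors that keep the response going. Many carcinoma lines express a part of this programme without added interferon.

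ERINA is listed under the symbol LINC00992, to which RefSeq gives ERINA as a synonym. Its level was 63.4 FPKM (fragments per kilobase of transcript, scaled to the mapped fragments of a library) in the control, against 5.21 (shRNA1) and 8.91 (shRNA2). The shRNA1 library thus held 8.22% of the control level and the shRNA2 library 14.0%. The limma adjusted p (Benjamini-Hochberg) of this difference was 0.0816, and 0.0309 to 0.234 over the alternatives. The FPKM of a library summed to 790290 (control), 860240 (shRNA1) and 808451 (shRNA2). Depth, estimated from genes whose deposited bounds fit a single fragment, was 32500000 to 33800000 fragments per library. All 6 luminal epithelial markers were above the filter on low values. Leukocyte markers summed to 1.49 FPKM in the control and to 0.407 (shRNA1) and 0.378 (shRNA2), with CD3E, CD2 and MS4A1 listed at 0 in each, and endothelial markers summed to at most 0.0437 FPKM. Fibroblast markers summed to 5.32, 2.94 and 2.79 FPKM, with COL3A1 listed at 0 throughout. Of these, COL1A1 was lower with the hairpins (5.16, 1.65 and 2.10 FPKM) and DCN higher (0.0227, 1.25 and 0.662 FPKM). The leukocyte and fibroblast sums moved with the knockdown, and their part in the results below was not tested.

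The response element core, the motif given above for many antiviral genes, was looked up first as a description. A high share among interferon-stimulated genes was foreseeable, and it says nothing about the knockdown. RefSeq promoters of GRCh38.p14, from 250 bases before to 50 after a gene start, were matched for 35 of the 44 members. The core searched was GAAA, any 2 bases and GAAA again, on both strands. It occurred in 25 of the 35 members (71.4%), against 4.38% of all 27305 genes in the same table. Of the promoters themselves, 64.4% of the 45 that belong to members held it, against 3.57% of all 35116. The 25 members held 46 distinct cores, 26 read forward and 20 read on the other strand, and 15 members held more than 1. No entry was matched for DHX58, IFIT2, IFITM2, IRF7, MX2, OAS2, OASL, TRIM22 and USP18. The windows printed here, 70 bases each and 5' to 3' on the gene's strand, were chosen after the values were seen. They show the core nearest to a gene start in the 6 core-bearing members with the lowest knockdown values relative to control, IFI27 to IFIT1, and in the 4 with the smallest difference, BST2 to SAMD9. Both ranks used the mean difference of the hairpin libraries. Capitals mark the cores.
IFI27, chr14:94110611-94110680, plus strand: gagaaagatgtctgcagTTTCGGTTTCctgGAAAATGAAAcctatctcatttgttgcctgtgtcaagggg
MX1, chr21:41420538-41420607, plus strand: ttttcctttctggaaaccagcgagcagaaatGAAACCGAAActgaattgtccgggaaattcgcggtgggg
IFITM1, chr11:314004-314073, plus strand: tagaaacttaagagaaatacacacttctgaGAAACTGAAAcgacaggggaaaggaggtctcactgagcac
ISG15, chr1:1013360-1013429, plus strand: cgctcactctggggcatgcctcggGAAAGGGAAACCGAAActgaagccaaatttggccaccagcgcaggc
OAS3, chr12:112938432-112938501, plus strand: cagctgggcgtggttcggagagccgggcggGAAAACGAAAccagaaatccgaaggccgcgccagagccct
IFIT1, chr10:89392490-89392559, plus strand: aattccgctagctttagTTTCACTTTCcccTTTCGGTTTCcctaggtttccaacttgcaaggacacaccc
BST2, chr19:17405715-17405784, minus strand: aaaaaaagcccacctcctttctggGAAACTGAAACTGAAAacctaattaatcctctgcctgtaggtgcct
LGALS3BP, chr17:78979942-78980011, minus strand: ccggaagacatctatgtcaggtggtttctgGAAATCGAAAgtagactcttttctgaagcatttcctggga
IFIT5, chr10:89414534-89414603, plus strand: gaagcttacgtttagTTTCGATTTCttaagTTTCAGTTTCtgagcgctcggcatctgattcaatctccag
SAMD9, chr7:93118076-93118145, minus strand: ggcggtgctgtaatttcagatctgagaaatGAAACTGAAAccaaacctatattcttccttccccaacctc

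The same core stood beside genes at lower levels in the knockdown libraries and beside genes with a small mean difference. A small mean can hide unlike hairpins, as in SAMD9, at 71.2% of control with shRNA1 and 102.6% with shRNA2. ISG15 and BST2 each held 2 overlapping forward cores, which began at -113 and -107 in ISG15 and at -130 and -124 in BST2, counted in bases from the gene start. ISG15 was at 42.5% of its control level with shRNA1, whereas BST2 was at 102.9%. Of the members past the filter, the 22 with a core had a median difference in log2(FPKM + 0.5) of -0.48 with shRNA1 and -0.22 with shRNA2. The 7 without one, IFI35, OAS1, DDX58, IRF1, HERC6, STAT2 and IRF9, had medians of -0.09 and 0.04. The ranges overlapped, from -1.63 to 0.55 with a core and from -1.40 to 0.09 without with shRNA1, and OAS1, with no core in this window, gave the -1.40. A second word, TTCNNNGAA, the gamma-activated site, occurred in 31.4% of the 35 members and in 9.38% of all genes. It was found in IRF1, IRF9, IFI35, OAS1, PARP14, BST2, DDX60, EPSTI1, IFI27, IFITM1 and MX1. Of its 13 matches 6 overlapped a response element core. A match of letters is a description, not a binding site.

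**Figure D1:**
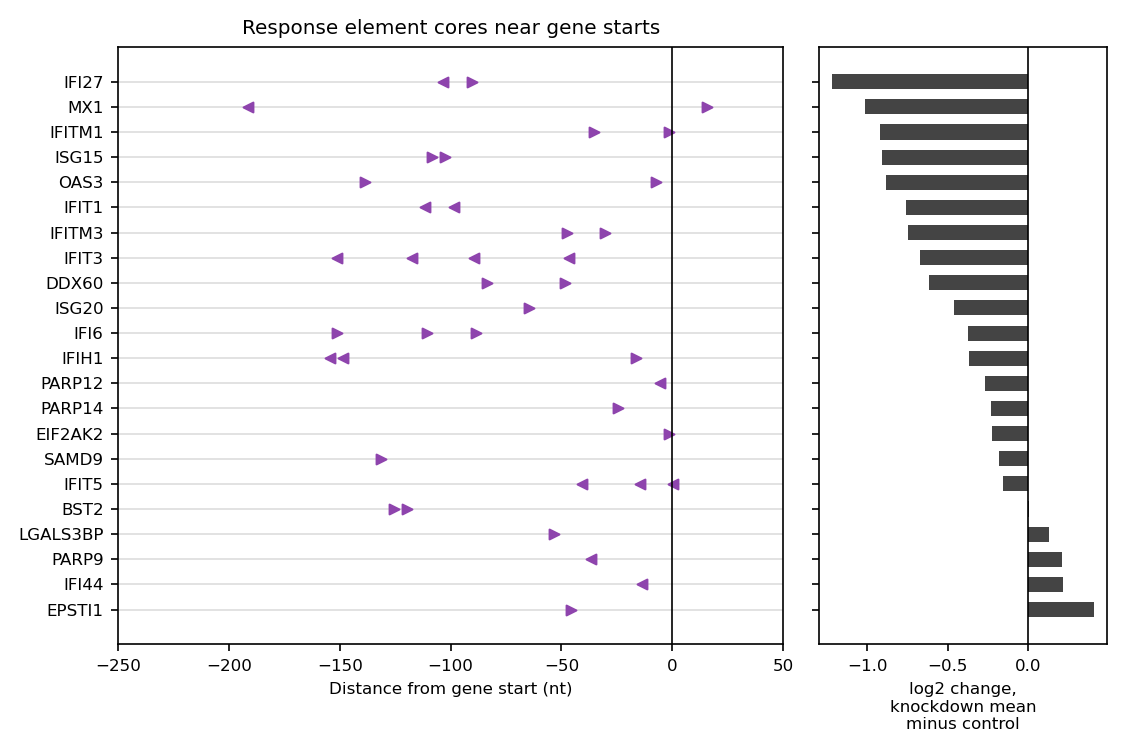
Left, response element cores (triangles, pointing right when forward and left when on the other strand) by distance in nt from the nearest listed gene start, for the 22 core-bearing members past the filter. Right, the log2 change of each gene (mean of the hairpin libraries minus control, pseudocount 0.5); the changes of these core-bearing genes range from IFI27 at -1.22 to EPSTI1 at 0.41.

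Of the 44 members, 37 had a mean of at least 1 FPKM over the 3 libraries and were tested along with 13112 genes in all. The 7 below it were the antiviral effectors TRIM22, RSAD2, CMPK2 and SAMD9L, the ISG15 ligase HERC5, the apoptosis-linked XAF1 and IFI44L. In the order control, shRNA1 and shRNA2, which is kept from here on, IFI44L was listed at 0, 0.00563 and 0.0387 FPKM. CMPK2, a mitochondrial nucleotide kinase, was at 0.140, 0.504 and 0.135 FPKM, and its neighbour RSAD2, which encodes viperin, at 0.231, 0.168 and 0.205. SAMD9L was at 0.288, 0.520 and 0.767, TRIM22 at 0.141, 0.0450 and 0.114, and XAF1 at 0.236, 0.146 and 0.163. HERC5 lay just under the filter at 0.891, 0.760 and 1.03 FPKM. These levels are too low for comparison. MX2 and EPSTI1 were under 1 FPKM in the control and passed only through the hairpin libraries, and IFI44 passed only through its shRNA2 value, so their higher values there are partly set by the filter.

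In control cells the 37 members past the filter were already expressed, at levels from 0.685 FPKM for MX2 to 139 FPKM for BST2. BST2, the membrane protein tetherin, lay above 94.9% of tested genes. Next came IFI6 (51.9 FPKM), MX1 (51.4), IFITM1 (35.1), IRF9 (32.7), LGALS3BP (31.8) and IFITM2 (31.3). Added up over all 44 members, FPKM came to 655 (control), 484 (shRNA1) and 571 (shRNA2).

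**Figure D2:**
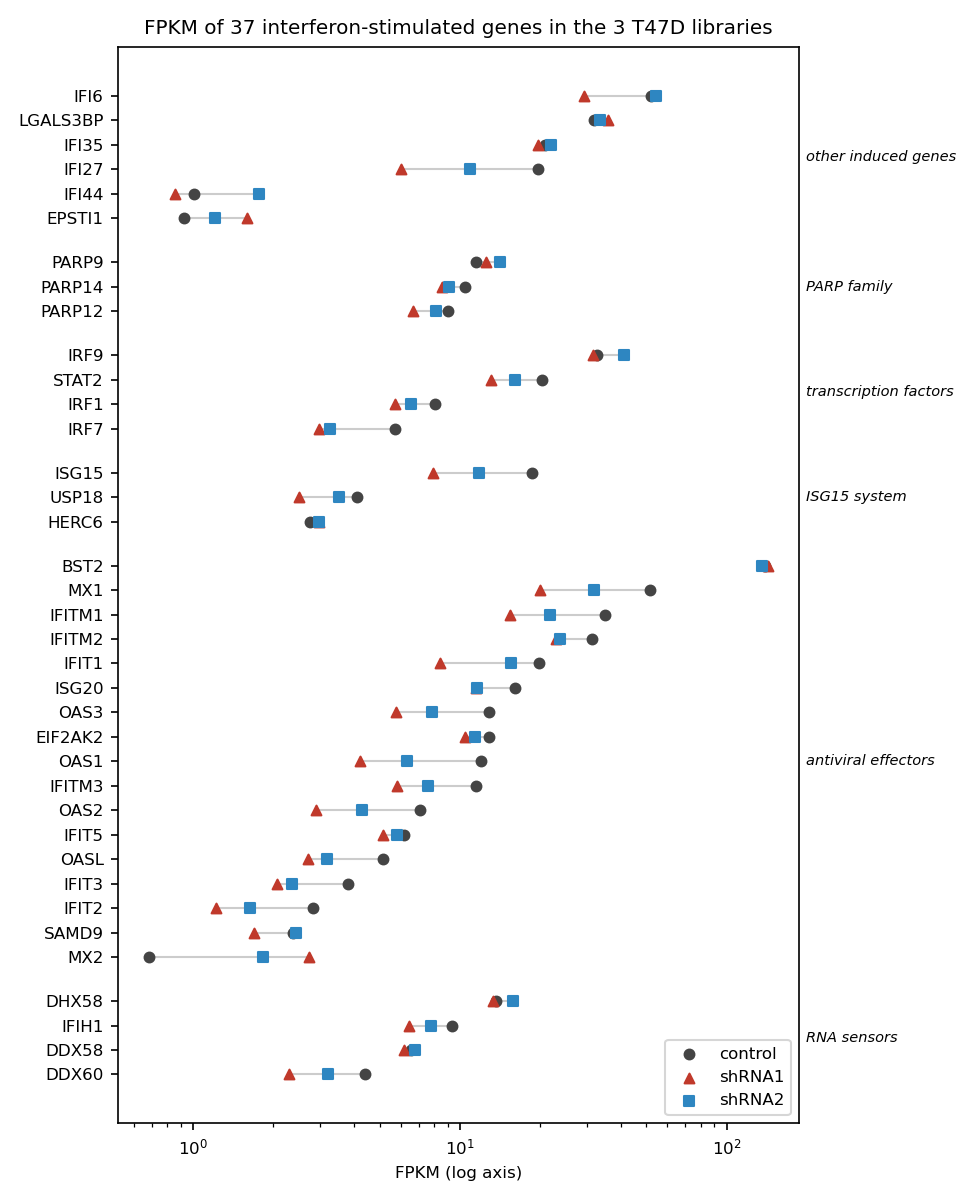
FPKM (log axis) of the 37 members past the filter in the control (circle), shRNA1 (triangle) and shRNA2 (square) libraries, 1 value per library, grouped by role. Most effectors have the control on the right and shRNA1 on the left, whereas MX2 runs the other way and BST2, at 136 to 143 FPKM, hardly spreads.

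Each hairpin was compared with the control on its own, and both comparisons share the control library. With shRNA1, 17 of 37 members (45.9%) were at least 1.5-fold lower than the control, against 10.8% of all tested genes, and 1 (MX2) was at least 1.5-fold higher, against 7.89%. For shRNA2, 11 of 37 (29.7%) were at least 1.5-fold lower, against 7.11% of all tested genes, and 2 (MX2 and IFI44) were higher, against 5.69%. MX2 and IFI44 are among the genes that passed the filter only through libraries where they are high, so nothing is read from the counts of higher members. These folds are taken on log2(FPKM + 0.5) and carry no test. The median difference over the members was -0.46 with shRNA1 and -0.24 with shRNA2, whereas over all tested genes both medians were 0.00 to 2 decimals. Just inside the limit were IFIT3 (-0.59) and IFI44 (0.59) with shRNA2, and just outside it IFITM3 with shRNA2 (-0.56) and EPSTI1 with shRNA1 (0.55).

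In limma over all 13112 genes, with Benjamini-Hochberg adjustment, 0 of the 37 members passed an adjusted p of 0.05, against 0.267% of genes called lower and 0.0839% called higher. At an unadjusted p under 0.05, 15 members (40.5%) were lower, against 15.9% of all tested genes, and 1 was higher, against 13.7%. With protein-coding genes tested alone, limma called 14 members (37.8%) lower, against 11.3% of those genes, and 1 (MX2) higher, against 7.11%. MX2, also the 1 higher at the unadjusted p, passed the filter only through the hairpin libraries, where it is high. Nothing is therefore read from its results in limma. The 14 were IRF7, IFITM1, IFITM2, IFITM3, ISG20, OAS1, OAS2, OAS3, OASL, IFIT2, IFIT3, ISG15, MX1 and IFI27. The test has 1 residual degree of freedom, and why the calls differ between the gene sets was not tested. By the deposited bounds, 1 of 37 members (MX1) had an shRNA1 interval wholly below that of the control, against 0.671% of tested genes, and 0 lay above it, against 0.252%. No member's shRNA2 interval was clear of the control in either direction (0 lower and 0 higher, against 0.221% and 0.0991% of tested genes).

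**Figure D3:**
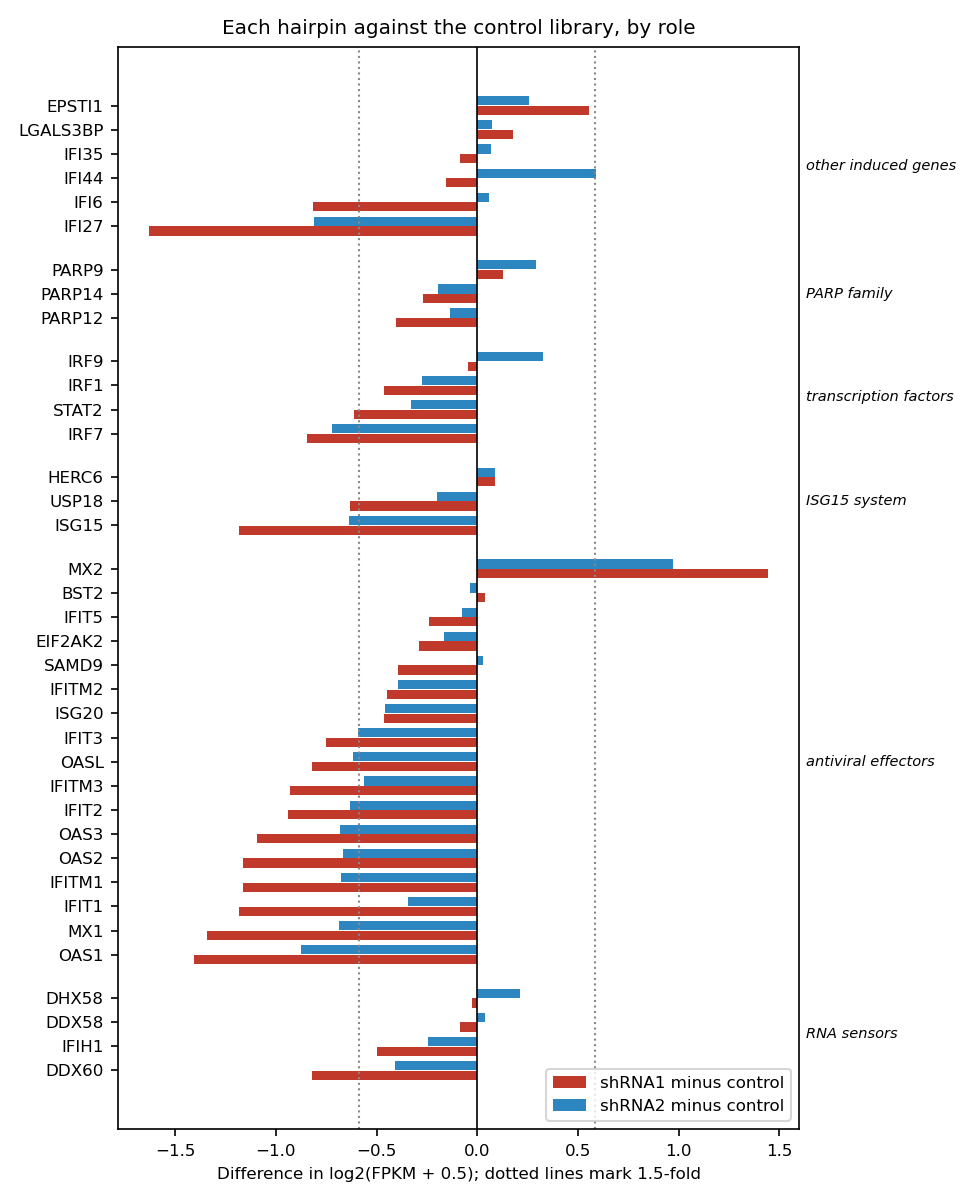
Difference in log2(FPKM + 0.5) of each hairpin library from the shared control for the 37 members past the filter, by role, with dotted lines at 1.5-fold and 1 library per bar. Effectors reach from -1.40 (OAS1, shRNA1) to 1.44 (MX2, shRNA1), and the RNA sensors from -0.82 to 0.21.

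The 17 measured antiviral effectors, the largest of the 6 role classes, held most of the lower values. Their median difference was -0.82 with shRNA1 and -0.56 with shRNA2, and 10 of 17 were at least 1.5-fold lower with shRNA1 and 8 with shRNA2, against 10.8% and 7.11% of all tested genes. Of these lower effectors, OASL alone had a deposited locus and exons not shared with another gene, whereas all RNA sensors had. OAS1, OAS2 and OAS3 make the 2'-5' oligoadenylates that activate RNase L, and they lie side by side on chromosome 12 (112906777 to 113011723, GRCh38). OAS1 was at 12 FPKM in control cells and at 4.22 (shRNA1) and 6.32 (shRNA2), which is 35.2% and 52.6% of its control level. OAS3 read 12.9, 5.76 and 7.86 FPKM, and OAS2 7.10, 2.90 and 4.29. The related OASL, an activator of RIG-I that lies apart from them on the same chromosome (121019111 to 121039242), was at 5.14, 2.69 and 3.17 FPKM. In all 4 genes the control was highest and shRNA1 lowest. The limma adjusted p (Benjamini-Hochberg over all genes) ran from 0.102 for OAS1 to 0.124 for OAS2, and over the alternatives from 0.0162 to 0.340. The deposited table gives OAS1, OAS2 and OAS3 as 1 shared locus, so the division of fragments among them is uncertain, whereas OASL has a locus of its own. Deposited bounds of OAS1 and OAS2 start at 0 in every library.

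MX1 encodes the dynamin-like GTPase MxA, which traps viral nucleocapsids in the cytoplasm. It was at 51.4 FPKM in the control (deposited bounds 30.9 to 71.8), 20.0 with shRNA1 (11.4 to 28.6) and 31.8 with shRNA2 (19.3 to 44.2). The knockdown libraries averaged 25.9 ± 8.34 FPKM (SD, n = 2), and the limma adjusted p (Benjamini-Hochberg) was 0.134, with 0.0263 to 0.376 over the alternatives. MX2, the neighbouring gene of the nuclear-envelope protein MxB on chromosome 21, was at 0.685, 2.72 and 1.82 FPKM, with the control lowest. The log2 change of the pair was -1.01 (SE 0.30) for MX1 and 1.21 (SE 0.28) for MX2, and the adjusted p of MX2 in limma was 0.102 (0.0213 to 0.287 over the alternatives). The control bound of MX2 starts at 0 and reaches 1.43 FPKM, which overlaps both hairpin intervals. Because MX2 passed the filter only through the hairpin libraries, nothing is read from its adjusted p or from its contrast with MX1.

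The IFITM proteins block fusion of viruses with cell membranes, and their genes cluster near the end of chromosome 11. IFITM1 was at 35.1, 15.4 and 21.8 FPKM, and IFITM3 at 11.5, 5.80 and 7.62. IFITM2 was at 31.3, 22.8 and 23.8 FPKM, with the hairpin libraries close to each other. These genes are related in sequence, and exons of IFITM1 and IFITM2 overlap on the same strand, so their reads may have been divided between them.

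The IFIT proteins bind viral RNA ends and stall translation. IFIT1 was at 19.8, 8.45 and 15.5 FPKM, so that the shRNA2 library lay nearer to the control than to shRNA1. IFIT2 stood at 2.81, 1.22 and 1.63 FPKM, and IFIT3 at 3.80, 2.06 and 2.35. IFIT5, the family member outside their shared deposited locus on chromosome 10, was at 6.17, 5.14 and 5.82 FPKM, 83.4% and 94.4% of the control level. IFIT1, IFIT2 and IFIT3 were at 42.7%, 43.6% and 54.2% of control with shRNA1. Deposited bounds of IFIT2 and IFIT3 start at 0 in every library, and those of IFIT1 do so with shRNA1.

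Of the remaining effectors, BST2, which tethers budding virions, was at 139, 143 and 136 FPKM, and its log2 change of 0.00 turned to -0.07 after scaling every library to 1 total. EIF2AK2, the RNA-activated kinase PKR that shuts down translation, was at 12.8, 10.4 and 11.4 FPKM. ISG20, an RNA exonuclease, was at 16.1, 11.5 and 11.6 FPKM, with the hairpin libraries nearly equal to each other. SAMD9, a restriction factor for poxviruses, was at 2.38, 1.69 and 2.44 FPKM, so only shRNA1 lay below the control.

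The 4 RNA sensors had medians of -0.29 with shRNA1 and -0.10 with shRNA2, and 1 of them was at least 1.5-fold lower with shRNA1 and 0 with shRNA2, against 10.8% and 7.11% of all tested genes. With 4 genes these counts are near those shares. DDX58, which encodes RIG-I, was at 6.56, 6.15 and 6.76 FPKM. DHX58, the regulator LGP2, was at 13.6, 13.4 and 15.9 FPKM. IFIH1, the long double-stranded RNA sensor MDA5, read 9.35, 6.47 and 7.82 FPKM. DDX60, a helicase reported to assist RIG-I, was at 4.42, 2.28 and 3.21 FPKM. DDX58 and DHX58 thus had the control between the hairpins, and IFIH1 and DDX60 had it highest. None of the sensors passed limma, also with protein-coding genes tested alone (Benjamini-Hochberg adjusted p of 0.0881 for DDX60 and more for the others).

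Among the transcription factors, IRF7, STAT2 and IRF1 had the control highest and IRF9 did not. IRF7, the factor that amplifies interferon gene transcription, was at 5.71, 2.96 and 3.27 FPKM and had the lowest adjusted p of the members, 0.0913 in limma (Benjamini-Hochberg; 0.0224 to 0.233 over the alternatives), with a log2 change of -0.78 (SE 0.15). STAT2 was at 20.3, 13.1 and 16.1 FPKM and IRF1 at 8.04, 5.69 and 6.55. IRF9, the DNA-binding partner of STAT2, was at 32.7, 31.6 and 41.1 FPKM, so its shRNA2 library was the highest of the 3. Its deposited bounds are wide, 2.86 to 62.5 FPKM in the control, and an exon of another gene on the same strand overlaps it. The class median was -0.54 with shRNA1 and -0.30 with shRNA2, between those of effectors and sensors. The difference between role classes was not tested, since genes are not replicates. The classes also differ in how many of their genes share a locus.

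ISG15, a ubiquitin-like protein that is attached to viral and cellular proteins, was at 18.6, 7.93 and 11.8 FPKM. USP18, the protease that removes it and restrains the interferon receptor, was at 4.13, 2.49 and 3.53 FPKM. HERC6, a ligase of the HERC family, was at 2.75, 2.95 and 2.96 FPKM, slightly above the control in both hairpin libraries. ISG15 and USP18 thus had the control highest and HERC6 had it lowest.

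Among the PARP family, whose members attach ADP-ribose to proteins, no gene was 1.5-fold apart from the control with either hairpin. Of all tested genes, 10.8% were at least that much lower and 7.89% higher with shRNA1, and 7.11% and 5.69% with shRNA2. With 3 genes, a count of 0 is near those shares. PARP9 was at 11.5, 12.6 and 14.1 FPKM, PARP12 at 9.01, 6.70 and 8.15, and PARP14 at 10.5, 8.59 and 9.08. PARP9 shares an exon stretch with DTX3L on the other strand.

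The 6 other induced genes past the filter differed among themselves. IFI27, a mitochondrial and nuclear membrane protein, was at 19.6, 5.99 and 10.95 FPKM. This was 3.27-fold and 1.79-fold below the control, and the shRNA1 value was the lowest of all members relative to control (30.6%). Its limma adjusted p (Benjamini-Hochberg) was 0.140, with 0.0293 to 0.385 over the alternatives. IFI6, which limits apoptosis and flavivirus replication, was at 51.9, 29.3 and 54.1 FPKM, so that only shRNA1 lay below the control. IFI44 was at 1.00, 0.852 and 1.76 FPKM, with shRNA2 alone above the control. IFI35 was at 20.9, 19.6 and 21.95 FPKM, LGALS3BP, a secreted glycoprotein, at 31.8, 35.9 and 33.5, and EPSTI1 at 0.925, 1.59 and 1.21.

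**Figure D4:**
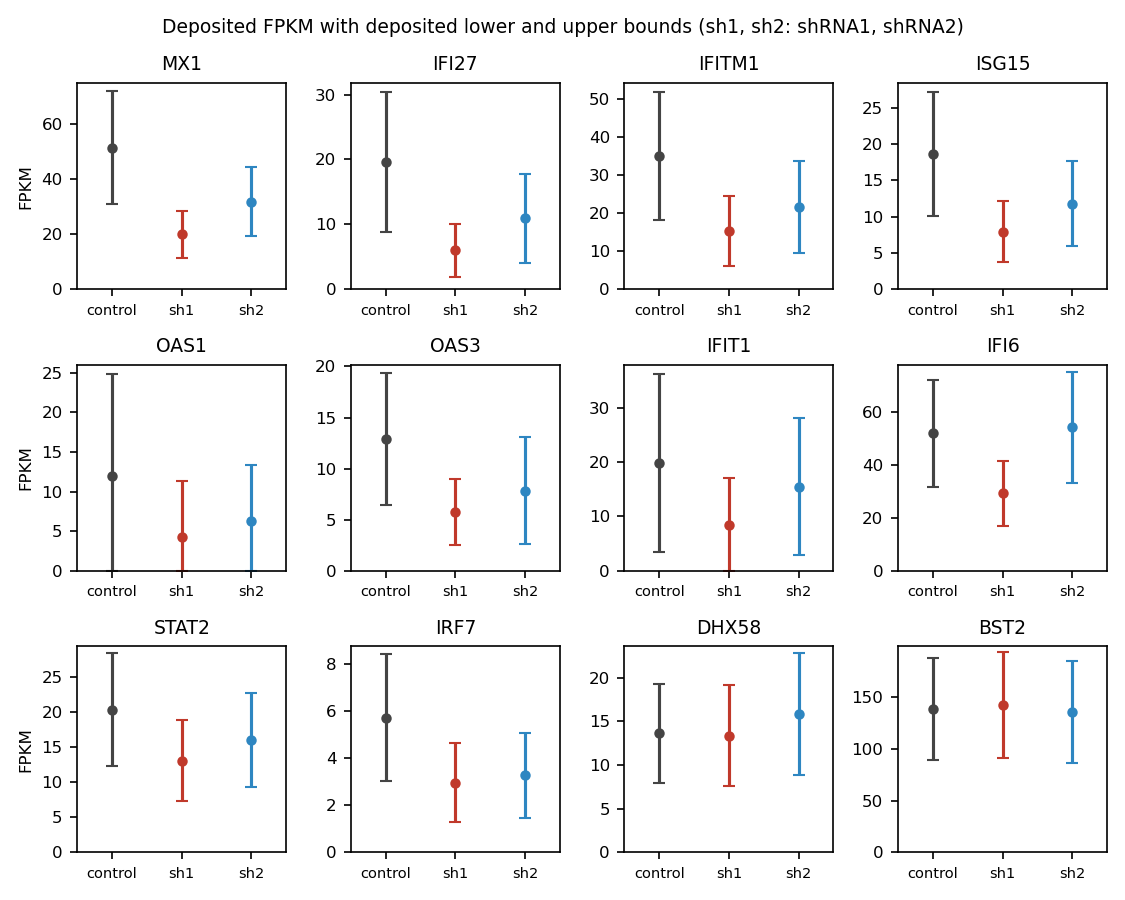
FPKM of 12 members in the 3 libraries, with points at the deposited value and bars from the deposited lower to the deposited upper bound, each panel on its own linear axis from 0. MX1 with shRNA1, whose bound ends at 28.6 FPKM, is the only one clear of its control bar, which begins at 30.9.

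The hairpin libraries were also compared with each other, a comparison that does not use the control. Of 37 members, 33 (89.2%) were lower with shRNA1 than with shRNA2 by any amount, against 52.2% of all tested genes. The median difference, shRNA1 minus shRNA2, was -0.26 over the members and -0.01 over all tested genes. At least 1.5-fold lower with shRNA1 were 5 members (13.5%), IFI6, IFIT1, IFI27, IFI44 and MX1, against 1.39% of tested genes, and 0 were 1.5-fold higher, against 1.27%. IFI44 passed the filter only through its shRNA2 value, so its place in both of these counts is partly set by the filter. IFI6 had the largest such difference, -0.87, followed by IFIT1 at -0.84 and IFI27 at -0.82. The 4 members higher with shRNA1 were MX2 (0.47), EPSTI1 (0.29), LGALS3BP (0.10) and BST2 (0.07). ERINA itself was lower with shRNA1, by a difference of -0.72 on the same scale. With 1 library for each hairpin these differences carry no test, and a difference between the libraries in general cannot be told apart from one between the hairpins.

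**Figure D5:**
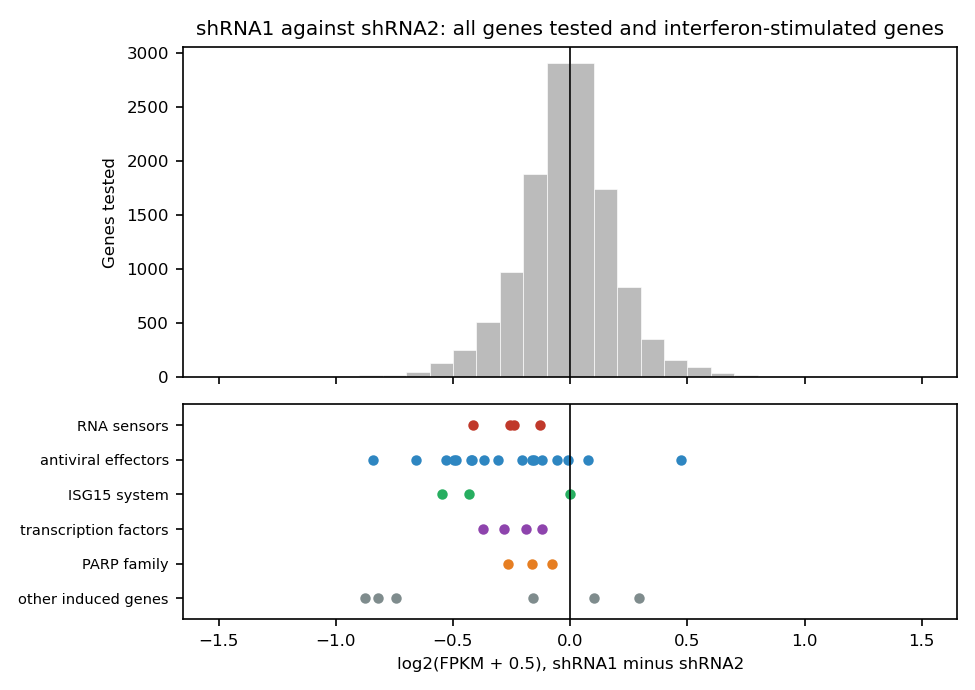
Top, number of tested genes by their difference in log2(FPKM + 0.5), shRNA1 minus shRNA2, in bins of 0.1 (38 genes lie below and 53 above the axis range). Bottom, the 37 members by role on the same axis; 33 points lie left of 0.

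Upstream of the members, the interferon genes looked up were near or at 0. Other interferon genes were not looked up. IFNA1, IFNA2, IFNG, IFNE, IFNK, IFNL2 and IFNL3 were listed at 0 in all 3 libraries, IFNB1 was at 0.0409 FPKM with shRNA1 and 0 elsewhere, and IFNL1 stayed between 0.0406 and 0.0422 FPKM. Of the 35 upstream genes listed, 22 passed the filter, and 0 of these passed limma over all genes (Benjamini-Hochberg), with 5 lower and 0 higher at an unadjusted p under 0.05, against 15.9% and 13.7% of all tested genes. Their median difference was -0.20 with shRNA1 and -0.06 with shRNA2. The 10 receptors and kinases had medians of -0.30 and -0.18, and the 9 measured adaptors and sensors above the interferon genes 0.03 and 0.03. IFNAR2, which carries the signal with IFNAR1, was at 2.13, 1.24 and 1.11 FPKM. Of the 22, it alone was at least 1.5-fold lower, with each hairpin (4.5%, against 10.8% and 7.11% of all tested genes). This is 1 gene of 22, so nothing is read from that share. By any amount, 72.7% of the 22 were lower with shRNA1, against 50.1% of all tested genes. With shRNA2 these shares were 63.6% and 49.8%. The deposited bounds of IFNAR2 start at 0 in every library, and another gene on the same strand overlaps its exons. IFNAR2 shares its deposited locus with IL10RB, at 21.4, 14.3 and 17.2 FPKM. IFNAR1 was level at 11.9, 11.6 and 11.4 FPKM. JAK1 was at 47.6, 36.3 and 37.6 FPKM and passed limma lower with protein-coding genes tested alone (Benjamini-Hochberg adjusted p of 0.0425, and 0.104 over all genes; up to 0.228 over the alternatives). TYK2 was at 13.3, 11.3 and 8.76 FPKM, with shRNA2 lowest. The DNA sensor gene MB21D1, which encodes cGAS, and ZBP1 were listed at 0 in every library.

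Shared loci bear on many of these values. Only 19 of the 37 measured members had a deposited locus and exons not shared with another gene. Among those 19, 5 were at least 1.5-fold lower with shRNA1 (DDX60, OASL, USP18, IRF7 and IFI27) and 3 with shRNA2 (OASL, IRF7 and IFI27), against 10.8% and 7.11% of all tested genes, with medians of -0.27 and -0.08. At least 1.5-fold higher were 1 with shRNA1 (MX2) and 2 with shRNA2 (MX2 and IFI44), against 7.89% and 5.69%. MX2 and IFI44 passed the filter only through libraries where they are high, so nothing is read from these higher counts. Of the effectors among the 19 (BST2, IFIT5, ISG20, MX2, OASL and SAMD9), OASL alone was at least 1.5-fold lower. All RNA sensors were among the 19, so role and locus sharing cannot be told apart for effectors and sensors. Whether reads were counted by strand is not given in the sources used here. Reads of an overlapping other-strand gene therefore cannot be told apart from those of MX1, ISG15, IRF1, OAS1, IFITM3, IFIT2, EIF2AK2 and PARP9. Exons of IFIT2 also overlap another gene on the same strand. In bulk RNA, fewer expressing cells and less RNA per cell cannot be told apart.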

How the data were processed

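The deposited values are FPKM with 1 column per library and a lower and upper bound for each, per the file headers. The level of confidence of the bounds is not given in the sources used here. The submitters' processing notes list STAR, RSEM and GRCh38 without versions or roles. Neither the library kit nor the annotation is stated there. FPKM are no counts, and no count test was run. Depth was estimated from genes with 1 transcript of at least 2000 nt whose upper bound lies above the FPKM by 2 times the FPKM (ratio of the implied standard deviation to FPKM within 0.05 of 1), read as a single fragment.

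Differences were taken on log2(FPKM + 0.5), which understates changes of low genes, where mean FPKM reached 1 or more. Folds and percentages of control are ratios of FPKM without pseudocount, except the count at 1.5-fold. Knockdown was tested against control with limma 3.58.1 (R 4.3.3; lmFit, eBayes with trend) across all 13112 genes, with Benjamini-Hochberg adjustment at 0.05. The control library has no repeat and is assumed to vary like the hairpin libraries. The limma step was tested on simulated data. Alternatives were pseudocounts of 0.1 and 1, no filter or a mean of at least 5 FPKM, a 2-fold limit, libraries scaled to the same total, eBayes without trend or robust, protein-coding genes alone, and 1 hairpin left out. Gene positions and types are from GENCODE release 29, and promoters from RefSeq (GRCh38.p14). The members, the 6 role classes, the upstream list and the markers were chosen with earlier results of these data known. All members could be named, and upstream genes were named if at least 1.5-fold from control with either hairpin, along with JAK1, TYK2, IFNAR1 and IFNAR2. 1 further upstream gene of the rule is not reported here. Other upstream genes named, IL10RB, MB21D1, ZBP1 and the interferons, were chosen after their values were seen. Tables and plots used Python 3.11.15, pandas 2.3.3, numpy 2.4.6 and matplotlib 3.10.9.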

Additional observations from a re-analysis of the deposited data

How the results depend on the processing

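No paired analysis was possible because there is 1 control library and the labels give it no replicate number. Of 37 members, 17 were 1.5-fold lower with shRNA1 and 11 with shRNA2, against 10.8% and 7.11% of all tested genes. These member counts became 8 and 0 at a 2-fold limit, 10 and 6 of 25 at a mean of at least 5 FPKM, and 5 and 3 of 19 with unshared loci alone (this setting was chosen after seeing the data). Fewer members are counted in the last pair of settings. The share of all genes at 2-fold or at 5 FPKM is not given here, so those counts are not set against a background. Members 1.5-fold higher with shRNA1 were 1, and became 2 with a pseudocount of 0.1 or no filter and 0 at 5 FPKM. With shRNA2 they were 2, and became 0 at 2-fold or 5 FPKM and 1 with a pseudocount of 1 or the same total. The median log2 change of members, knockdown against control, was -0.38, and -0.18 with unshared loci alone. Leaving out 1 hairpin gave -0.46 (shRNA1 alone) to -0.24 (shRNA2 alone). Between the hairpins the median was -0.26, and -0.16 with unshared loci alone, where 16 of 19 members were lower with shRNA1. Among those was IFI44, which passed the filter only through shRNA2. Limma calls of members went from 0 lower and 0 higher to 14 and 1 (MX2) with protein-coding genes alone, and those of upstream genes from 0 to 1 lower. The other alternatives run with limma gave 0 calls in both lists, also eBayes robust, which called 595 genes lower and 430 higher over all genes, against 35 and 11. Scaling libraries to 1 total moves the all-gene median by -0.12 (shRNA1) and -0.03 (shRNA2). It reversed the log2 change of BST2 to -0.074, of IRF3 to -0.034 and of ADAR to -0.018. Apart from counts over fewer members, the causes of these shifts were not tested. Depth is an estimate here, and the number of libraries limits the precision.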
